A study of Mus musculus with 6 samples.

Results

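The enzymes of heme synthesis were compared in spleens of garlic-fed and control mice. The genes were Alas1, Alas2, Alad, Uros, Urod, Cpox, Ppox and Fech, and every probe set that the array annotation assigns to exactly 1 of these 8 genes was kept. This gave 19 of the 45037 probe sets of the array. Both groups were male C57BL/6J mice that entered the study at 8 weeks of age and were sampled after 15 weeks on a base diet of casein, sucrose and cornstarch with soybean oil and L-cysteine. The control mice received 4% cellulose in this diet and the garlic-fed mice 4% lyophilized raw garlic powder, so that the diets differed in cellulose as well as in garlic. Each group held 3 mice, with 1 Affymetrix array of whole spleen RNA for each mouse.

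Heme is made from glycine and succinyl-CoA in a chain of reactions that begins and ends in the mitochondrion and passes through the cytosol in between. Aminolevulinate synthase makes the first intermediate and sets the pace of the pathway. It exists as a housekeeping form, Alas1, which heme itself represses, and as an erythroid form, Alas2, which is transcribed in red cell precursors under Gata1 and translated when iron is at hand. In mice the red pulp of the spleen makes red blood cells (RBC) throughout adult life, and erythroblasts need far more heme than most other cells because hemoglobin carries it.

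The values were MAS5 signals, a measure of the brightness of the oligonucleotides of a probe set on a linear scale, and the number of arrays limited their precision. Brightness also depends on the sequence of a probe set, so levels of different genes were not set against each other. B cell markers (4 of 5 listed genes with a probe set) had summed signals of 35460 to 40110 in the controls, against 33500 to 37090 after garlic, and T cell markers (5 of 6) of 11090 to 11700 against 9783 to 11420, so that the markers of the labeled tissue were present. Markers of the neighboring pancreas (11 of 14) summed to 17690 to 138500 in the controls, against 2096 to 35760 after garlic. In a whole spleen, more cells of a type and more RNA per cell cannot be told apart.

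Uros, Cpox, Ppox and Alad rose in garlic-fed spleens past an adjusted p under 0.05, by 2.52-, 2.52-, 1.87- and 1.72-fold. Alas1, Alas2, Urod and Fech did not pass this threshold. These 4 of 8 genes compare with 42 of 12262 genes (0.343%) that were higher past this threshold over the whole array. None of the 8 was lower, as against 0.00816% of all genes. At an unadjusted p under 0.05, Urod and Fech were higher as well, which made 6 of 8 beside 6.89% of all genes, and none was lower beside 6.24%. In 5 of the 8 genes all garlic-fed mice lay above all controls, a pattern shown by 9.13% of all genes, and in none below them, beside 10.7%. A fold above 1.8 with an unadjusted p under 0.05, the criterion of the study, was met by 3 of the 8 and by 1.08% of all genes. The log2 fold changes of the 8 genes were all above 0, as were those of 44.2% of all genes, and their median was 0.77, beside -0.03 over all genes tested. Adjusted p-values are from limma with Benjamini-Hochberg adjustment over the 27022 probe sets tested, and the brightest probe set by mean log2 signal stood for its gene. Of the 19 probe sets, 17 passed the filter on dim signal.

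The adjusted calls depended on single control arrays and on how the variance was modeled. Of the 8 genes, none passed the adjusted threshold of limma when control mouse 1 or control mouse 2 was left out, when dim probe sets were kept or when the variance was not allowed to depend on signal, and none passed with the methods' test. In each of these settings 5 of the 8 were higher at an unadjusted p under 0.05. Over the array, in either direction, 1931 of 27022 probe sets reached it without control mouse 1 and 2272 without control mouse 2. With dim probe sets kept 3908 of 45037 did, and 2812 of 27022 with the variance not allowed to depend on signal. The methods' test gave 2548 on log2 signals and 2514 on linear signals. Without control mouse 3, Uros was the single gene that passed.

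**Figure D1:**
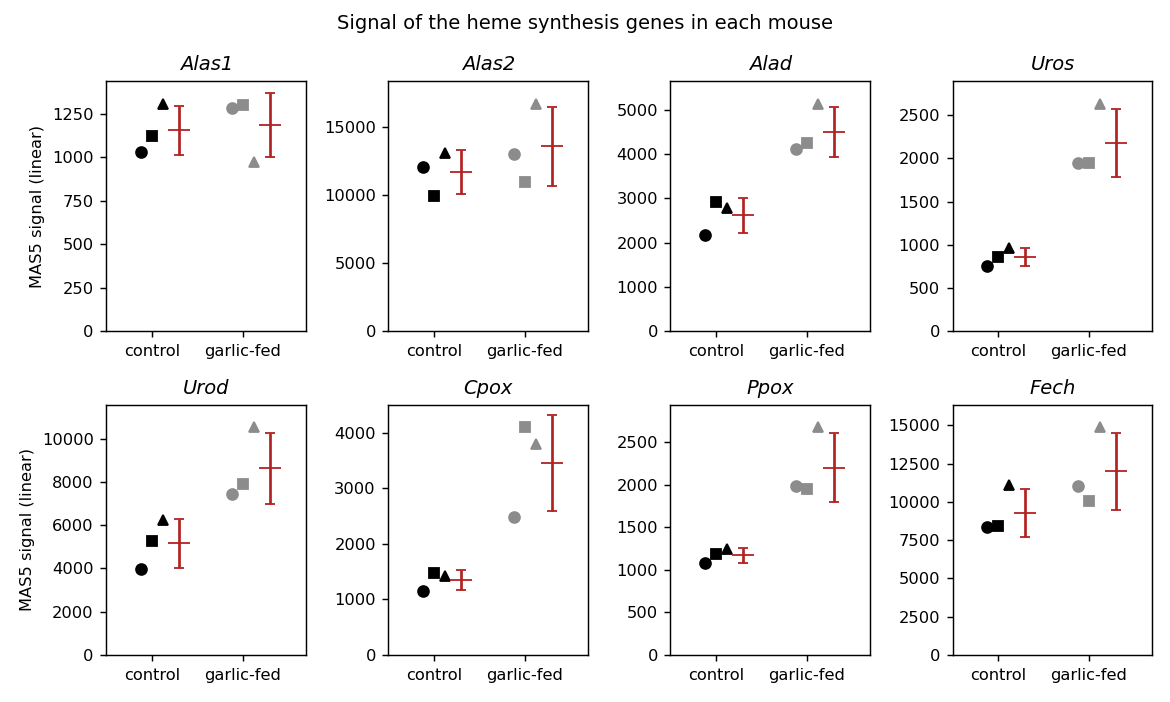
MAS5 signal on a linear axis in each mouse for the probe set that represents each gene; control mice are drawn in black and garlic-fed mice in gray (circle, square and triangle for mice 1, 2 and 3), with the mean and SD of 3 mice in red. All garlic-fed mice lie above all control mice in Alad, Uros, Urod, Cpox and Ppox, and the groups overlap in Alas1, Alas2 and Fech.

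At the entry of the pathway, neither form of aminolevulinate synthase passed the test. Alas1 (probe set 1424126_at) had signals of 1032.6, 1121.3 and 1307.0 in the controls, against 1281.8, 1298.0 and 971.0 after garlic. The garlic-fed mice thus lay within the range of the controls or below it. The log2 fold change was 0.03 (limma, standard error (SE) 0.14, adjusted p = 0.962), with a 95% interval from 0.819- to 1.27-fold, and it turned to -0.05 without control mouse 1. A dimmer probe set of Alas1, 1455282_x_at, gave 0.03 as well (SE 0.21), on signals of 170.5 to 254.8 over the 6 mice.

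Alas2, which supplies the aminolevulinate for hemoglobin, was read by the single probe set 1451675_a_at. Its signals were 12053.6, 9925.0 and 13101.4 in the controls, against 12998.3, 10978.1 and 16679.9 after garlic. The groups overlapped, and garlic-fed mouse 3 alone stood above all controls. The log2 fold change was 0.20 (limma, SE 0.15, adjusted p = 0.683), with a 95% interval from 0.915- to 1.44-fold. It was 0.04 without garlic-fed mouse 3, 0.09 without control mouse 2 and 0.34 without garlic-fed mouse 2 (unadjusted p = 0.0337 from limma).

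The upstream sequences of both synthases and of Cpox are shown. Of the 7 enzymes searched, Alas2 and Cpox had a GATA motif in the window used, and Alas1 is the housekeeping counterpart of Alas2. The sequences are the 250 bases before the first listed RefSeq transcription start on build GRCm38.p6. They lie on the minus strand for Alas1 (chr9:106247955-106248204) and on the plus strand for Alas2 (chrX:150547167-150547416) and Cpox (chr16:58669958-58670207). Capitals mark matches on either strand to a GATA motif, searched as AGATAA or else AGATAG and likewise as TGATAA or else TGATAG, or to a CACC motif of the kind bound by Klf1, searched as CCNCNCCC. Overlapping or adjoining matches run together.
Alas1: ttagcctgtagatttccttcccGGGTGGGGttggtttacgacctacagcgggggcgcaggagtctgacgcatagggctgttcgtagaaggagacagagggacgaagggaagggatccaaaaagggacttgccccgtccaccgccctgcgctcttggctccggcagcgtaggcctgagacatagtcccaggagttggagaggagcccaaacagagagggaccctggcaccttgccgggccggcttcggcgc
Alas2: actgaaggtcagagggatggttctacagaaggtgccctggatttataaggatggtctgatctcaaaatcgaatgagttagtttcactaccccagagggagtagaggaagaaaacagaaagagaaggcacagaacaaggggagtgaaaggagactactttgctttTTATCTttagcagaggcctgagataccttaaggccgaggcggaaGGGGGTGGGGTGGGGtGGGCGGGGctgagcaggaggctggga
Cpox: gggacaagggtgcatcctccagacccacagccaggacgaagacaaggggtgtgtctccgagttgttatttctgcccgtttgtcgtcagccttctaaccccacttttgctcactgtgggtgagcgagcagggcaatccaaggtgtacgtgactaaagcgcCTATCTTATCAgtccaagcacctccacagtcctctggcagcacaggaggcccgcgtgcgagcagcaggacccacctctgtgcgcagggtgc

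A GATA motif was found in 2 of the 7 genes searched, Alas2 and Cpox, and in 26.5% of all 32851 windows of this length. Each of these genes was searched at its first listed start only, whereas the share is over all windows listed. In Alas2 it lay 86 to 81 bases before the start, and in Cpox overlapping matches ran from 91 to 81 bases before it. The CACC motif was found in Alad, Alas1, Alas2 and Uros, 4 of the 7, and in 45.9% of all windows. Fech was not searched. A match describes the letters of the window and not a bound site.

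Alad, aminolevulinate dehydratase, opens the cytosolic part of the pathway by joining a pair of aminolevulinate molecules to porphobilinogen. The signals of probe set 1424877_a_at were 2173.0, 2909.5 and 2778.3 in the controls, against 4110.1, 4254.0 and 5140.5 after garlic. The lowest garlic-fed mouse lay well above the highest control. Alad rose by 0.79 in log2 signal (limma, SE 0.13, adjusted p = 0.0498), with a 95% interval from 1.41- to 2.10-fold, so that it only just passed. It did not pass with any single array left out (adjusted p 0.0541 to 0.175). The dim probe set 1457306_at, at 137.9 ± 19.7 in the controls and 265.6 ± 51.0 after garlic (SD, n = 3 each), gave 0.94 (limma, SE 0.21, adjusted p = 0.119), again with no overlap.

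Uros, uroporphyrinogen III synthase, closes the ring that the later intermediates share. The signals of probe set 1423482_at were 754.7, 855.8 and 960.2 in the controls, against 1949.8, 1941.3 and 2630.9 after garlic. Each garlic-fed mouse exceeded the highest control by a wide margin. Uros rose by 1.34 in log2 signal (limma, SE 0.14, adjusted p = 0.0123), a 2.52-fold difference with a 95% interval from 2.02- to 3.15-fold, and ranked 7 by p-value among the probe sets tested. It passed the adjusted threshold in 12 of 18 alternative settings, and its log2 fold change lay between 0.99 and 1.42 in all 18. The dim probe set 1440535_at read 99.7, 74.9 and 144.0 in the controls, against 176.1, 135.1 and 173.7 after garlic. Here the groups overlapped, with a log2 fold change of 0.65 (limma, SE 0.28, adjusted p = 0.434). The rise of Uros on the arrays was not seen in the paper's qPCR of spleens at the same feeding time. There the means of Uros were close in both diets and not marked as different, whereas Cpox was marked as higher after garlic. The cause of this disagreement on Uros was not tested.

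Urod, uroporphyrinogen decarboxylase, trims the side chains of the ring and is the last enzyme in the cytosol. The signals of probe set 1443849_x_at were 3972.4, 5250.6 and 6230.9 in the controls, against 7443.4, 7898.7 and 10513.1 after garlic. The groups did not overlap, and the controls were spread widely among themselves. The log2 fold change was 0.75 (limma, SE 0.17, adjusted p = 0.122), with a 95% interval from 1.30- to 2.18-fold, and did not pass the adjusted threshold. By its suffix this probe set may bind RNA of other genes. Another one, 1417206_at, whose name carries no such suffix, read 1959 ± 598 in the controls and 3698 ± 824 after garlic (SD, n = 3 each). Its groups did not overlap either, and it gave 0.94 (limma, SE 0.22, adjusted p = 0.134).

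Cpox, coproporphyrinogen oxidase, takes up the product of Urod in the space between the mitochondrial membranes. The signals of probe set 1422493_at were 1147.1, 1479.2 and 1421.5 in the controls, against 2485.8, 4099.3 and 3795.6 after garlic. Garlic-fed mouse 1 was the lowest of its group and still lay above all controls. Cpox rose by 1.33 in log2 signal (limma, SE 0.18, adjusted p = 0.0240), with a 95% interval from 1.91- to 3.33-fold. Its other probe sets gave smaller values. Probe set 1422492_at read 1113.7, 1363.2 and 1376.7 in the controls, against 1449.4, 1499.3 and 3095.9 after garlic. Garlic-fed mice 1 and 2 were only just above the controls there and mouse 3 far above, with a log2 fold change of 0.56 (limma, SE 0.25, adjusted p = 0.451). The dim probe set 1440747_at gave 0.94 (limma, SE 0.22, adjusted p = 0.131), with no overlap. With its 3 probe sets averaged, Cpox had a log2 fold change of 0.94 and did not pass (limma, adjusted p = 0.0625).

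Ppox, protoporphyrinogen oxidase, turns the colorless porphyrinogen into protoporphyrin. The signals of probe set 1416618_at were 1081.3, 1183.6 and 1246.9 in the controls, against 1984.8, 1949.3 and 2676.1 after garlic. The controls lay close together and all garlic-fed mice above them. Ppox rose by 0.90 in log2 signal (limma, SE 0.14, adjusted p = 0.0360), with a 95% interval from 1.52- to 2.30-fold. The dimmer probe set 1448065_at gave 0.40 (limma, SE 0.19, adjusted p = 0.473), also with no overlap. With both averaged, Ppox did not pass (log2 fold change 0.65, limma, adjusted p = 0.0683). A further probe set, 1441862_at, was not tested, with signals of 18.9 to 69.7 in the controls and 54.2 to 83.8 after garlic.

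Fech, ferrochelatase, inserts iron into protoporphyrin and completes heme. The signals of its brightest probe set, 1418699_s_at, which by its suffix may bind RNA of other genes, were 8367.3, 8388.2 and 11065.7 in the controls, against 11057.1, 10034.3 and 14854.1 after garlic. Garlic-fed mice 1 and 2 lay below the highest control, and garlic-fed mouse 3 above it. The log2 fold change was 0.36 (limma, SE 0.15, adjusted p = 0.419), with a 95% interval from 1.02- to 1.62-fold, and it was 0.20 without garlic-fed mouse 3. Probe sets 1418698_a_at and 1449181_at gave 0.30 (SE 0.20) and 0.25 (SE 0.28), and their groups overlapped too. The remaining one, 1427696_at, was under the floor of 23.5 in 2 controls and 1 garlic-fed mouse and was not tested.

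By probe set, 4 of the 17 tested were higher past the adjusted threshold, 1 each for Alad, Uros, Cpox and Ppox, beside 0.226% of all probe sets, and none was lower, beside 0.0111%. At an unadjusted p under 0.05 the counts were 11 higher and none lower, beside 5.58% and 5.44%. In 10 of the 17 the garlic-fed mice all lay above the controls, beside 7.52%, and in none below them, beside 9.29%. The fold and p cutoffs of the study, applied to limma p-values, were met upward by 6, beside 0.921%. All 17 had a log2 fold change above 0, as did 43.5% of all probe sets. The 7 with overlapping groups were those of Alas1, Alas2 and Fech and the dim probe set of Uros.

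**Figure D2:**
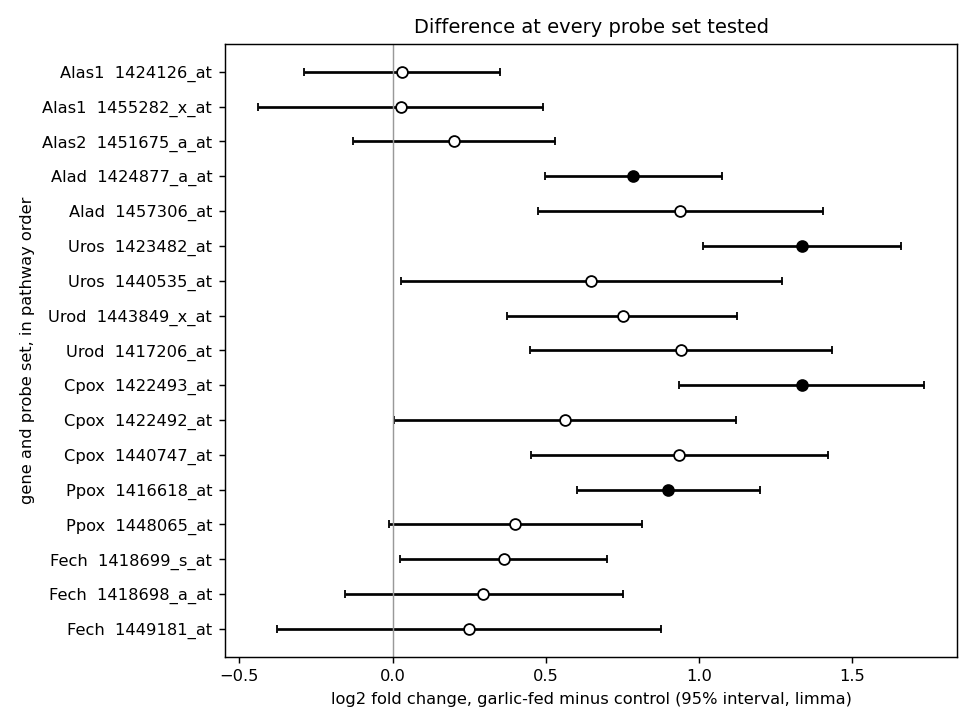
Log2 fold change between garlic-fed and control mice (x axis) with its 95% interval from limma for each of the 17 probe sets tested, in pathway order; filled circles passed an adjusted p under 0.05. The filled circles are 1 probe set each of Alad, Uros, Cpox and Ppox, and the intervals of Alas1, Alas2, 2 probe sets of Fech and the dimmer one of Ppox include 0.

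The changes of enzymes that follow each other among those analysed, which need not be adjacent reactions, were then compared within each mouse, since a pass for a gene beside a miss for the next does not show that they differ. An exact permutation test over the 20 groupings of the arrays (two-sided) was run on 7 pairs, and with 3 mice against 3 it gives no p under 0.1. The change of Alad exceeded that of Alas2 by 0.58 in log2 (SE 0.23), that of Uros exceeded that of Alad by 0.55 (SE 0.09), and that of Cpox exceeded that of Urod by 0.58 (SE 0.22). In the other direction, Urod differed from Uros by -0.59 (SE 0.09), Ppox from Cpox by -0.44 (SE 0.24) and Fech from Ppox by -0.54 (SE 0.10). In these 6 pairs the differences of the garlic-fed mice did not overlap with those of the controls, and each had the smallest exact p of 0.1, or 0.117 after adjustment over the pairs. None could therefore pass 0.05. The changes of Alas1 and Alas2 differed by -0.17 (SE 0.33, exact p = 0.8). The pairs share genes, so they are not separate results, and how often other gene pairs of the array separate was not computed. Single arrays were also left out, after seeing the data. The exact p of Ppox against Cpox was then 0.2 after omission of any control mouse or of garlic-fed mouse 2. For Alad against Alas2 it was 0.2 after omission of any garlic-fed mouse, and for Cpox against Urod after omission of control mouse 3.

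These differences rested in part on which probe set stood for a gene. With all probe sets of each gene averaged, Alad still exceeded Alas2, by 0.66 (exact p = 0.1). The difference between Uros and Alad became 0.13 (exact p = 0.9), that between Urod and Uros -0.15 (exact p = 0.4) and that between Cpox and Urod 0.10 (exact p = 0.7). Ppox against Cpox gave -0.29 and Fech against Ppox -0.35 (exact p = 0.3 for both).

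**Figure D3:**
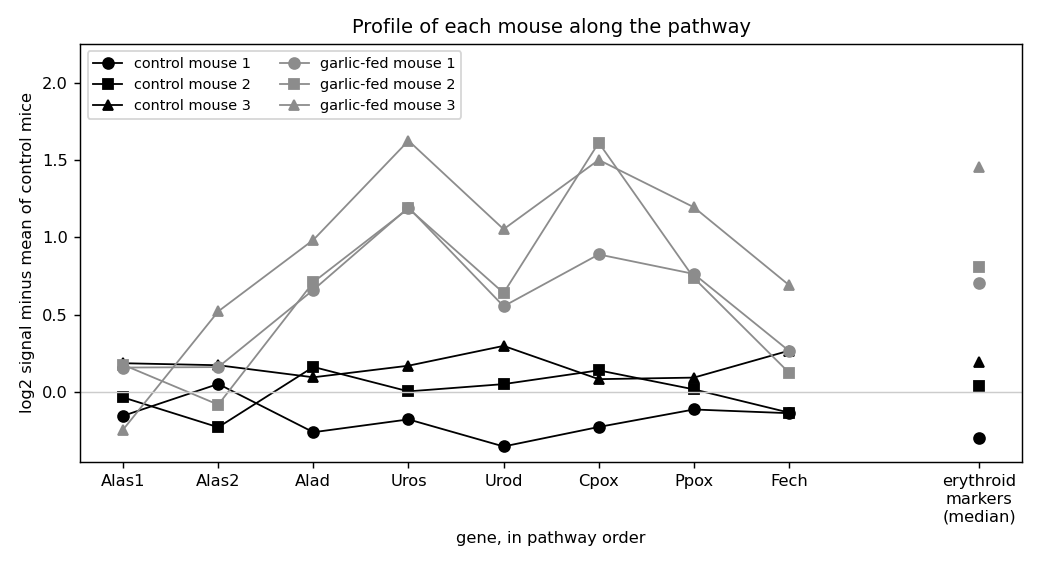
Log2 signal of each mouse minus the mean of the control mice (y axis) for the 8 genes in pathway order, with the median of 12 erythroid precursor markers at the right; control mice are drawn in black, garlic-fed mice in gray, and lines join the values of a mouse. Garlic-fed mice separate from control mice from Alad to Ppox and not at Alas1, Alas2 or Fech, and garlic-fed mouse 3 has the highest value of its group in 6 of the 8 genes.

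Some mice kept their place across most of the enzymes. Garlic-fed mouse 3 and control mouse 3 had the highest signal of their group in 6 of the 8 genes, and control mouse 1 had the lowest of its group in 7. Garlic-fed mice 1 and 2 changed places, with the lowest signal in 3 and 4 genes. The median of the 8 genes, relative to the control mean on the log2 scale, was -0.17, 0.01 and 0.17 in the controls, against 0.61, 0.68 and 1.02 after garlic. Markers of erythroid precursors moved in the same way. Their median was -0.29, 0.04 and 0.20 in the controls, against 0.71, 0.81 and 1.45 after garlic. Of 14 listed markers 12 had a probe set, and in 11 of these all garlic-fed mice lay above the controls, beside 9.13% of all genes. The summed signal of the 12 markers was 29970 to 40030 in the controls, against 53200 to 78170 after garlic. None of these markers was under the floor on all arrays. The part of the erythroid markers in the differences of the heme enzymes was not tested.

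All 12 erythroid markers, beside 6.89% of all genes, had an unadjusted p under 0.05 for a higher signal. Past the adjusted threshold, beside 0.343% of all genes, 4 of the markers rose. They were Kel, a blood group antigen of RBC (log2 fold change 1.40, limma, adjusted p = 0.0243), Icam4, an adhesion molecule of erythroblasts (1.31, adjusted p = 0.0466), Ermap, an erythroid membrane protein (1.27, adjusted p = 0.0139), and Tfrc, the receptor that brings iron into erythroblasts (1.01, adjusted p = 0.0186). The transcription factors listed for Alas2 had a median log2 fold change of 0.89 over 8 genes. Of these, Nfe2 (1.37, limma, adjusted p = 0.0375) and Sox6 (1.34, adjusted p = 0.0186) rose, and the other 6 did not pass. Of the 6, 4 were higher at an unadjusted p under 0.05, beside 6.89% of all genes. Among the 6 transcription factors listed for Alas1, all groups overlapped, the median was 0.25 and none passed in limma at an adjusted or unadjusted p under 0.05. The brightest of them were Sp1 (-0.06, SE 0.16, limma, adjusted p = 0.932) and Foxo1 (-0.29, SE 0.15, adjusted p = 0.536). Log2 fold changes were above 0 in the other 4 of these 6, beside 44.2% of all genes.

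The globins, which take up the heme, could be tested for 3 of 10 listed genes, since 4 had no probe set of their own and 3 were too dim. Hbb-b2, a β-globin, read 2370 ± 937 in the controls and 2629 ± 1369 after garlic (SD, n = 3 each), with overlapping groups. Hba-a2, an α-globin, was dim, at 81.8 to 151.3 in the controls and 98.0 to 183.3 after garlic. Its log2 fold change was 0.17 (limma, SE 0.33, adjusted p = 0.900). The remaining globin tested, Hbb-bh1, was dim too, at 74.0 to 157.3 over the 6 mice, and gave 0.24. None of the 3 passed in limma at an adjusted or unadjusted p under 0.05. Probe sets assigned to more than 1 gene were left out here, so these values do not give the level of globin RNA in the spleens.

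Of 17 genes of substrate supply and porphyrin transport, 2 rose past the adjusted threshold, beside 0.343% of all genes, and 15 did not pass. At an unadjusted p under 0.05, 7 were higher and 1 lower, beside 6.89% and 6.24% of all genes. The median log2 fold change of the 17 genes was 0.18. Abcb10, an inner membrane transporter that erythroblasts need for heme synthesis, read 1473 ± 119 in the controls and 3072 ± 295 after garlic (SD, n = 3 each). Its log2 fold change was 1.06 (limma, SE 0.11, adjusted p = 0.0123). Slc25a38, which brings glycine into the mitochondrion, read 783.6 ± 45.7 in the controls and 1298 ± 120 after garlic (SD, n = 3 each), a log2 fold change of 0.73 (limma, SE 0.12, adjusted p = 0.0427).

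The other lists of the pathway held few calls. Among 9 genes of iron-sulfur cluster assembly and the iron regulatory proteins, the median was 0.04 and none passed the adjusted threshold of limma. At an unadjusted p under 0.05, where 6.89% of all genes were higher, 2 of the 9 were higher and none lower. These were also the brightest, Glrx5, a glutaredoxin of cluster assembly whose groups did not overlap (0.57, SE 0.10, limma, adjusted p = 0.0609), and Isca1 (0.26, SE 0.11, adjusted p = 0.445). Among 11 genes of heme export, sensing and degradation, the median was 0.31. At an unadjusted p under 0.05, where 6.89% of all genes were higher, 5 of the 11 were higher and none lower. Past the adjusted threshold 1 of them rose, beside 0.343% of all genes. The gene that rose was Hebp1, a heme-binding protein, at 3308 ± 215 in the controls and 4808 ± 196 after garlic (SD, n = 3 each), a log2 fold change of 0.54 (limma, SE 0.09, adjusted p = 0.0427).

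The genes most like the enzymes in profile were sought among the 12254 other genes tested, by the root mean square difference over the 6 arrays from the mean profile of the 8 enzymes. The nearest were Pigq (0.03 in log2), Trak2, Ranbp10, St3gal5, Gypc and Tfdp2 (0.05 each). Among the enzymes themselves Alad was nearest to their mean (0.10) and Alas1 farthest from it (0.54). Gypc encodes glycophorin C of the RBC membrane and read 1085.1, 1179.7 and 1239.3 in the controls, against 1731.1, 1836.2 and 2097.7 after garlic. In log2 fold change the 6 genes ranged from 0.66 to 0.71, close to the mean of the enzymes by construction.

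Markers of other cells were set beside these values, and none of their genes passed the adjusted threshold of limma. The 4 markers of granulocyte precursors, cells that make the heme enzyme myeloperoxidase, summed to 681.9 to 1044 in the controls, against 1602 to 1729 after garlic. At an unadjusted p under 0.05, where 6.89% of all genes were higher, 3 of the 4 were higher. The brightest were Mpo (0.94, SE 0.22, adjusted p = 0.132) and Prtn3 (1.07, SE 0.24, adjusted p = 0.117), and the part of these cells in the results was not tested. The 4 megakaryocyte markers, with Pf4 (0.09) and Itga2b (-0.05) the brightest, summed to 3850 to 6125 against 4355 to 6172. The 8 red pulp macrophage markers, with Csf1r (0.07) and Vcam1 (0.11), summed to 60860 to 67650 against 62090 to 74560, and 2 reached that unadjusted p. The fat markers (6 of 8 listed), with Scd1 (0.31) and Car3 (0.67), summed to 10760 to 11330 against 9001 to 20860, and 1 was higher at that p. Among the lymphocyte markers Cd79b (-0.23), Ms4a1 (-0.04), Cd3d (-0.10) and Cd3g (-0.19) were the brightest, and 1 B cell marker was lower at that p. In 3 of 5 T cell markers all garlic-fed mice lay below the controls, beside 10.7% of all genes.

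All 11 pancreas markers, with Cela1 (-1.79) and Prss2 (-3.72) the brightest, were lower at an unadjusted p under 0.05, beside 6.24% of all genes. The groups overlapped in each of these markers. Pancreas probe sets held 0.00718% to 0.669% of the total signal of an array. Their signal was highest in control mouse 1, the mouse lowest in most enzymes, and in garlic-fed mouse 2. With these arrays of most pancreatic signal left out in each group, Uros (log2 fold change 1.32, limma, adjusted p = 0.0369) was the single enzyme that passed. The log2 fold changes of Cpox, Ppox, Alad and Urod were then 1.08, 0.92, 0.69 and 0.63, each at an unadjusted p under 0.05. Fech (0.41, unadjusted p = 0.0381 from limma) and Alas2 (0.37, unadjusted p = 0.0459) reached it there too, which made 7 of the 8. Over the array, 1471 of 27022 probe sets reached it in that setting, in either direction.

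**Figure D4:**
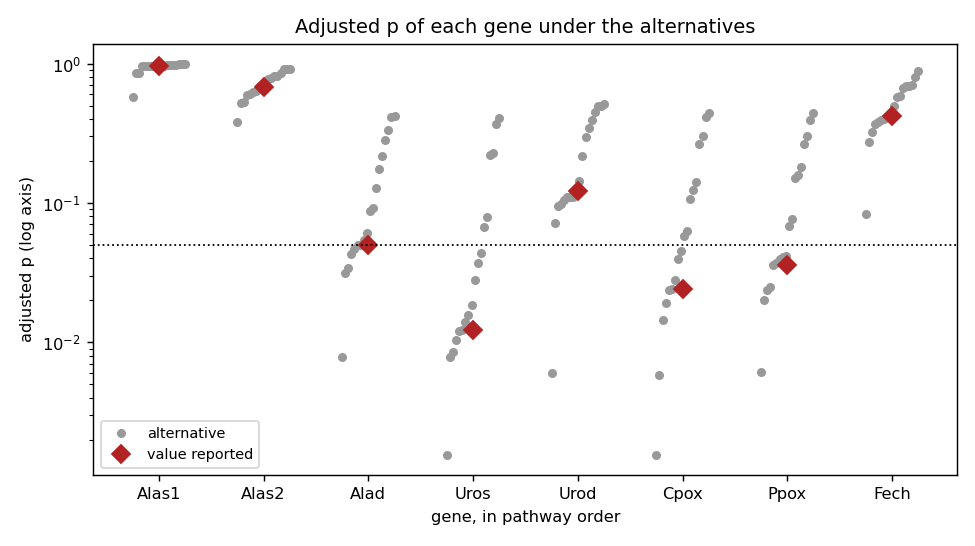
Adjusted p (log axis) of each gene, in pathway order, as reported (red diamonds) and under the 18 alternative settings (gray circles, sorted by size); the dotted line marks 0.05. Uros lies under the line in 12 of the alternatives, whereas no value of Alas1, Alas2 or Fech does.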

How the data were processed

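Spleens of 3 control and 3 garlic-fed mice were measured on 1 Affymetrix array each. The deposited values are intensity values, MAS5 signals on a linear scale computed by the authors, and every array has a mean of 500 with 2% trimmed at each end. The MAS5 version is not given in the sources used here. After leaving out 64 control probe sets, signals were floored at 23.5 (20th percentile) and log2 was taken. A mean log2 signal above 6.08 (40th percentile) was required for testing. Tests used limma 3.58.1 in R 4.3.3 (eBayes, variance trend), checked on simulated data. Python 3.11.15 and matplotlib 3.10.9 drew the figures. Gene names came from GEO's platform annotation and promoters from RefSeq.

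Named were all 8 enzymes with every probe set, up to 4 members of each other list that changed most past the adjusted threshold, or its 2 brightest where none passed, and the 6 genes most alike in profile. The members and lists were chosen with earlier results of these data known. Alternatives covered centering, quantile normalization, floor, filter, variance model, the methods' test, replicate number as a block, left-out arrays and averaged probe sets. Not every step of the pathway is reported here.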

Additional observations from a re-analysis of the deposited data

How the results depend on the processing

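The median log2 fold change of the 8 enzymes was 0.62 to 0.87 over 18 alternatives, against 0.77 as reported. Alad, Uros, Urod, Cpox and Ppox were higher at an unadjusted p under 0.05 in all 18, Fech in 10, Alas2 in 3 and Alas1 in 0. Over the array, in either direction, 1471 to 3777 probe sets reached it in the alternatives that tested 27022. The adjusted counts moved, from 64 probe sets over the array (61 higher, 3 lower) and, among the enzymes, 4 probe sets and 4 genes. These 3 counts were 11 (4 higher, 7 lower), 0 and 0 with dim probe sets kept. They were 0, 0 and 0 in limma without a variance trend (2812 probe sets at an unadjusted p under 0.05) and 0, 0 and 0 with the methods' test on log2 signals (2548) or on linear signals (2514). Without the array of most pancreatic signal in each group they were 36 (8 higher, 28 lower), 1 and 1. With single arrays left out they were 0 to 111, 0 to 3 and 0 to 3, at 0 without control mouse 1 or 2 and at 33, 1 and 1 without control mouse 3. Over the array, lower calls also outnumbered higher ones without garlic-fed mouse 2 (28 higher, 33 lower). Averaged probe sets left 2 genes, Alad and Uros, for which no count over the array is given here. A stricter filter left 3, without Alad, beside 62 of 18015 probe sets over the array (59 higher, 3 lower). Centering each array on its median gave 151 (147 higher, 4 lower) over the array and the same 4 genes. At the threshold of the methods (an unadjusted p under 0.05 and a fold over 1.8), their test gave 231 probe sets on log2 signals and 208 on linear signals, with 3 enzyme genes in both. Alas1 turned negative without control mouse 1, garlic-fed mouse 1 or garlic-fed mouse 2 (range -0.045 to 0.168 with single arrays left out) and without the pancreatic arrays (-0.118). Alas1 minus Alas2 ranged from -0.383 to 0.128 with single arrays left out (this alternative was added after seeing the data) and was positive without garlic-fed mouse 3. With the replicate number as a block the counts were 295 (270 higher, 25 lower), 6 and 5, with Urod added. The numbers share no stated pairing, and the correlations of same-numbered mice were 6e-04, -0.18 and 0.08. The causes of these shifts were not tested.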
